A study of Mus musculus with 12 samples.

Results

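The genes of glycolysis and of the pentose phosphate pathway were followed in mouse bone-marrow-derived macrophages, cells grown in culture from marrow precursors. The set of 32 genes was defined by a list of symbols covering sugar and lactate carriers, glycolytic enzymes, kinases that control them and pentose phosphate enzymes. All 32 were among the 48440 genes of the count table, and all 32 passed the filter on low counts that left 16292 genes for testing. RNA was sequenced from 12 libraries in 6 groups of 2. The groups are CKO after IFN-γ, WT after IFN-γ, CKO after IL-4, WT after IL-4, CKO without cytokine and WT without cytokine, and the cytokines were given for 24 h at 100 U/mL (IFN-γ) or 20 ng/mL (IL-4). The labels give the genotypes only as CKO and WT, and the series title names IRF8 in macrophages. The deleted exons, the Cre driver, the strain and the number of animals are not given in the labels. The labels do not say that paired libraries are from separate animals either, so p-values measure the spread between these libraries, which may be technical.

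Irf8 went against the label. Its level was 1203 and 1172 CPM (counts as a share of the library's total, with totals scaled by TMM) in libraries labelled CKO and 513 and 502 CPM in WT libraries after IFN-γ. After IL-4 it was 169 and 139 CPM in CKO and 70.9 and 65.6 CPM in WT, and without cytokine 293 and 248 CPM in CKO and 90.9 and 91.2 CPM in WT. A count over the whole gene does not check the loss of single exons. CKO and WT beside a value below therefore mean the libraries so labelled, and each direction is between those labels. The libraries labelled CKO were also low in Lyz2, the macrophage lysozyme gene, at 12.6 to 28.0 CPM, against 5843 to 11854 CPM in WT libraries. The other 7 macrophage markers summed to 3600 to 4834 CPM in CKO and 2870 to 3409 CPM in WT libraries. Single markers went both ways. By log2 fold change, Fcgr1 was lower in CKO without cytokine (−1.65, and −1.585 without the first CKO library). After IL-4, Fcgr1 (−0.70) and Itgam (−0.69) were lower. Adgre1 (0.95) and Itgam (0.72) were higher after IFN-γ, and Csf1r was higher without cytokine (0.79, and 0.64 without the first CKO library). Of 9 entries, Lyz2 included, edgeR called 4 higher and 2 lower after IFN-γ (all genes 10.4% and 8.01%). It called 0 and 3 after IL-4 (1.41% and 1.55%), and 3 and 2 without cytokine (8.6% and 9.37%). Totals ran from 21287725 to 32717379 counts per library. The first untreated library labelled CKO stood apart: its mitochondrial share of counts was 1.52%, against 2.12% to 3.25% in the other 11, and it was the lowest of all 12 libraries for 14 of the 32 genes. Most differences of single genes that use untreated CKO are followed by the value of a fit without that library. Counts and medians within subsets of the 32 genes are from all 12 libraries unless stated.

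Glycolysis splits glucose into pyruvate, and lactate dehydrogenase turns pyruvate into lactate, which carriers export. The pentose phosphate pathway branches off after the hexokinase step: its oxidative arm makes NADPH and its non-oxidative arm returns sugars to glycolysis. Macrophages stimulated with IFN-γ or bacterial products are known for a high glycolytic rate, in which the hypoxia-inducible factor HIF1A drives many of these genes, and their NADPH feeds the oxidase that makes reactive oxygen.

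The sequences just before the start of 5 genes that differed between libraries labelled CKO and WT are shown first, because 4 of these genes were lower in CKO without cytokine and after IFN-γ and the fifth was higher. They are the 250 bases before the RefSeq start (GRCm38.p6), written 5′ to 3′ on the strand of the gene. Capitals mark each match of the core to which hypoxia-inducible factors are known to bind, searched as ACGTG or GCGTG on both strands. The glucose carrier gene Slc2a1 (chr4:119108495-119108744, plus strand) and the lactate exporter gene Slc16a3 (chr11:120948817-120949066, plus strand) held 2 matches each. Pfkp, a phosphofructokinase gene (chr13:6648772-6649021, minus strand), held 3. The first RefSeq promoter of the lactate dehydrogenase gene Ldha (chr7:46845554-46845803, plus strand) held 5, of which 4 overlap as pairs within 2 CACGTG sites. Taldo1, the transaldolase gene and the one that was higher (chr7:141391910-141392159, plus strand), held 1.
Slc2a1: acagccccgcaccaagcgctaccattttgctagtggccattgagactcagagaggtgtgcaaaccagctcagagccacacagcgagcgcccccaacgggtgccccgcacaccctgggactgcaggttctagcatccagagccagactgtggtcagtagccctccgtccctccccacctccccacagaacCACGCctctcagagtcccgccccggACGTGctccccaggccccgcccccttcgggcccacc
Slc16a3: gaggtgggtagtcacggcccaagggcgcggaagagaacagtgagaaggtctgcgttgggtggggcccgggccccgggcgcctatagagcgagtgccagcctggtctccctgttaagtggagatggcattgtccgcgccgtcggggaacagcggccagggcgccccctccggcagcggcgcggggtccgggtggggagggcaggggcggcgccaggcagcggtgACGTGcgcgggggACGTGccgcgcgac
Pfkp: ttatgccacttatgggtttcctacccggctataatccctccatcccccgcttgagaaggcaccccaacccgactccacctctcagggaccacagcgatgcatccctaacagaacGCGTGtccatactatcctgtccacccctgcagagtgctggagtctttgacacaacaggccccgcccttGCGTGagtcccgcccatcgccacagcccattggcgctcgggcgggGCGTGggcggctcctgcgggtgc
Ldha: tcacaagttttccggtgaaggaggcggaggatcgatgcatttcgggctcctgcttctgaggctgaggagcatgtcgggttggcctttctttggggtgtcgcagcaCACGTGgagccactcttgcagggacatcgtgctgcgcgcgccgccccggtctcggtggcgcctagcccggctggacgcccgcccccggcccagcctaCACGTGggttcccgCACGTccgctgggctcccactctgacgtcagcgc
Taldo1: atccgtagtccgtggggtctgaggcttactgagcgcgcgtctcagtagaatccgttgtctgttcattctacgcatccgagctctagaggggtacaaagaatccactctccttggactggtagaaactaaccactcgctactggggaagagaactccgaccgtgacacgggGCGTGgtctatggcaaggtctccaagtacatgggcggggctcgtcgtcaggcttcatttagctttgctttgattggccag
All 32 genes matched a RefSeq promoter, with 46 promoters in all. At least 1 match was found for 27 of the 32 genes (84.4%), against 41.5% of 27025 genes searched in the same way. By promoter, 35 of 46 (76.1%) held it, against 38.6% of 32851. The shares are not matched for base composition, a match is not a binding site, and both directions of difference occurred among genes with a match. Other motifs were searched in the same promoters. The gamma-activated site was found for 2 of the 32 genes (6.25%, against 8.13% of all genes). The STAT6 site was found for 4 (12.5%, against 6.76%), and the E-box, CACGTG, for 4 (12.5%, against 6.86%). The antioxidant response core, searched as TGACNNNGC on both strands, was found for 4 genes (12.5%, against 11.5% of all genes): Slc16a1, Hk1, Aldoa and G6pdx.

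The 32 genes covered a wide range of levels. Per kilobase of exon, the mean over the 6 groups was highest for the pyruvate kinase gene Pkm at 448 CPM per kb, followed by Aldoa (371), Hk3 (285), Pgam1 (242) and Taldo1 (205), and lowest for Ldhb (3.18) and Bpgm (2.39). The library protocol in the labels enriches for coding transcripts, so a level between genes also depends on that enrichment. Even Ldhb, the gene with the fewest counts, had 85 to 185 counts per library. Several values are uncertain because the genome holds near-identical copies to which reads can be assigned. For Gapdh, 87 such genes in the table held 149% to 165% of the counts of Gapdh itself, for Pgk1 2 genes held 45.9% to 50.5%, for Eno1 3 held 32.9% to 37.8%, and for Pgam1 1 held 13.7% to 15.1%. Pkm, Tpi1, Gpi1, Ldha and Ldhb had copies with at most 3.96% of their counts. Genes on the opposite strand share 748 exon bases with Pfkp, 558 with Rpe and 418 with G6pdx, in each case from a gene with at least 594.8 counts per library on average. Gpi1 (741 bases), Pgls (776), Pkm (767) and Pfkm (341) share exon bases with genes that had at most 15.0 counts on average or, for Pkm, no value in the table, and all other shared stretches were of at most 157 bases. The strand setting of the counting is not given in the sources used here.

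**Figure D1:**
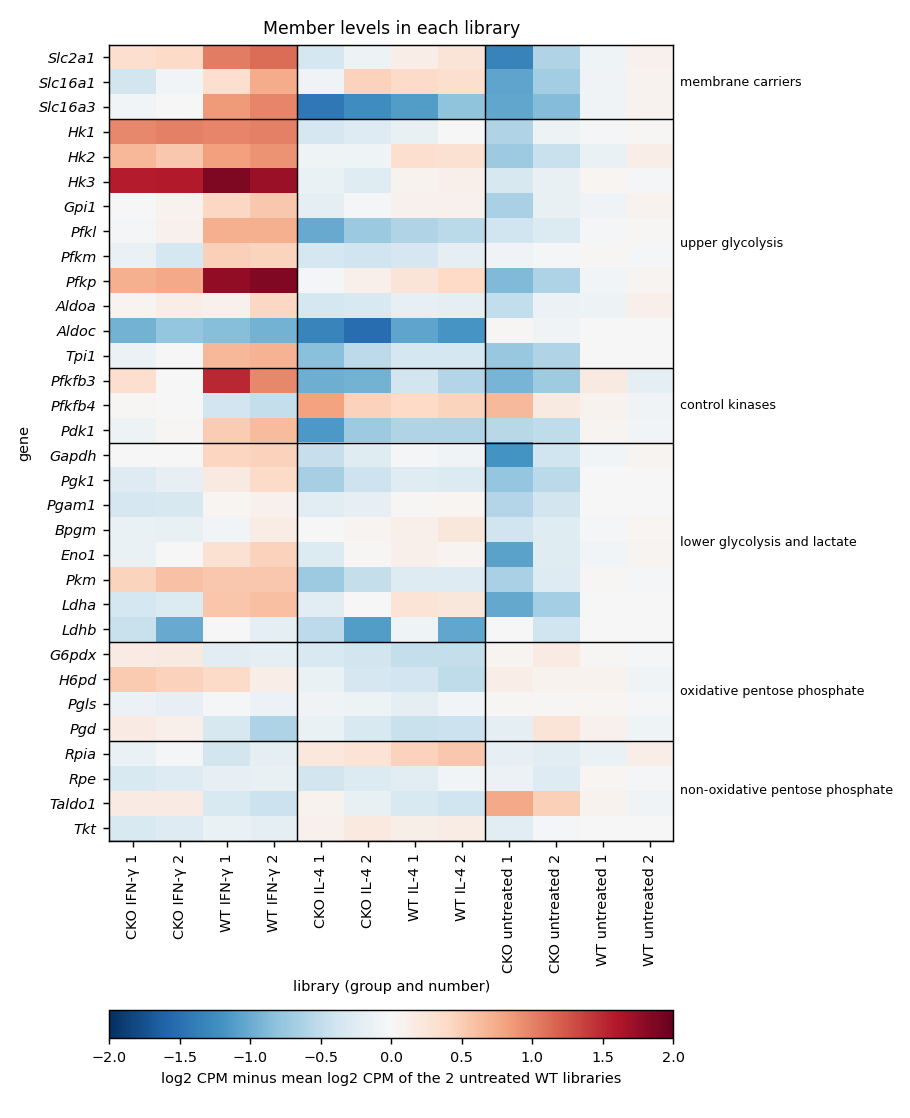
Heat map of the 32 genes (rows, grouped by role) in the 12 libraries (columns), coloured by log2 CPM minus the mean log2 CPM of the 2 untreated WT libraries (red higher, blue lower). Columns run from IFN-γ to IL-4 to untreated, with libraries labelled CKO left of WT in each block; the carriers, Pfkp, Pfkfb3 and Ldha are bluer in CKO than in WT in the IFN-γ and untreated blocks, and Taldo1 is redder.

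After IFN-γ, 13 of the 32 genes were lower and 3 were higher in libraries labelled CKO than in WT (edgeR quasi-likelihood test, adjusted p under 0.05 over all genes tested). Over all genes tested, 8.01% were called lower and 10.4% higher, 18.4% in either direction, and of the 8928 genes with a mean of at least 10 CPM 22.3% were called. Without cytokine 14 were lower and 1 was higher, against 9.37% and 8.6% of all genes, 18% in either direction and 22.3% of genes of at least 10 CPM. The median log2 fold change of the 32 genes was −0.32 after IFN-γ and −0.33 without cytokine, where the median of all genes tested was 0.02 and 0.00. Among the lower genes, 11 were called in both comparisons: Slc2a1, Slc16a1, Slc16a3, Pfkl, Pfkp, Tpi1, Pfkfb3, Pdk1, Pgk1, Pgam1 and Ldha. The comparisons share no library, but both come from 1 fit of all 12 libraries with a shared estimate of the spread, so they are not independent. All genes called lower belonged to the 24 genes of glycolysis, its carriers and its control kinases, and all those called higher to the 8 pentose phosphate genes. The 2 libraries labelled CKO did not overlap the 2 WT libraries for 27 of the 32 genes after IFN-γ (63.0% of all genes) and for 27 without cytokine (59.4% of all genes).

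Left-out libraries moved these counts. Without the first untreated CKO library, 7 genes were lower and 1 was higher in untreated CKO than in WT (median −0.24), the 7 being Slc2a1, Slc16a3, Pfkp, Tpi1, Pgk1, Pgam1 and Ldha. Without the first or the second untreated WT library 7 were lower, and Taldo1 was no longer called without the second. Without the second untreated CKO library or either IL-4 CKO library 2 were higher. After IFN-γ, 7 were lower without the first CKO library and 8 without the second WT library, and the 3 higher genes became 1 without the second WT library and 0 without either CKO library. The genes called in all 12 such fits were Slc16a3, Pfkp, Tpi1, Pgk1 and Ldha without cytokine, and Slc16a3, Pfkl, Pfkm, Pfkp, Tpi1, Pfkfb3 and Ldha after IFN-γ.

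After IL-4, edgeR called 0 of the 32 genes between libraries labelled CKO and WT, where it called 2.96% of all genes (1.41% higher, 1.55% lower) and 2.84% of genes of at least 10 CPM. At an unadjusted p under 0.05 there were 15 genes, and DESeq2 called 1, Hk2 (log2 fold change −0.40, adjusted p = 0.0489). With the library number as a block edgeR called 2, both lower: Hk2 (−0.41, adjusted p = 0.0426) and Slc16a3 (−0.38, adjusted p = 0.0385). Without either untreated CKO library or the second IL-4 CKO library, edgeR called 2 lower. The signs leaned the same way as in the other conditions: 25 log2 fold changes were negative and 7 positive, with a median of −0.24 (−0.01 over all genes). The libraries did not overlap for 28 of the 32 genes, against 47.8% of all genes. Neither interaction, which tests whether the response to a cytokine differed between the labels, was past the test for any of the 32 genes, where edgeR called 2.72% of all genes for IFN-γ (2.07% higher, 0.651% lower, 3.82% of genes of at least 10 CPM) and 0.0368% for IL-4 (0.0246% higher, 0.0123% lower, 0.0672% of genes of at least 10 CPM). At an unadjusted p under 0.05 there were 6 genes in each, and DESeq2 called 1 for IFN-γ, Pfkm (−0.66, adjusted p = 0.0359), and 0 for IL-4. Without the first untreated CKO library, edgeR also called 0 in either interaction. Without the second, which leaves the library that stood apart as the only untreated CKO library, 4 genes were called higher in each. A difference called without cytokine or after IFN-γ and not after IL-4 is therefore not shown to depend on IL-4.

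**Figure D2:**
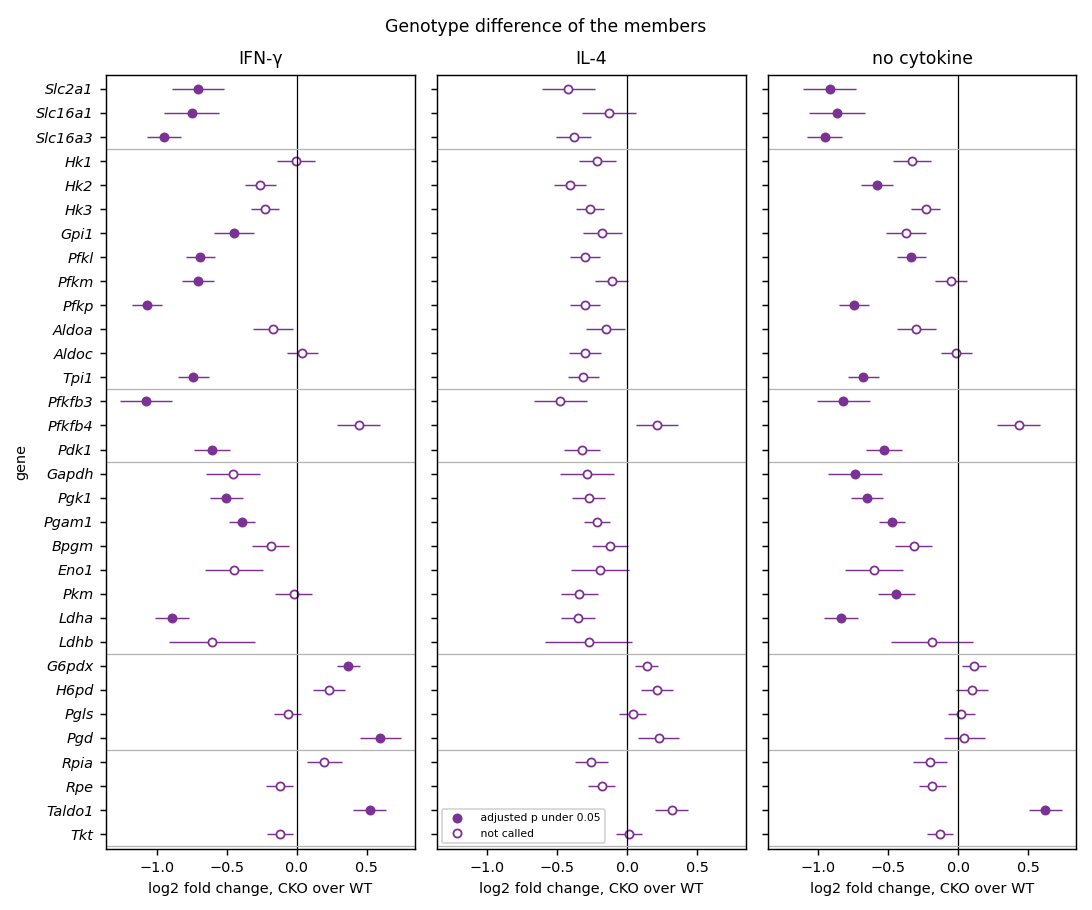
Log2 fold change of libraries labelled CKO over WT (horizontal axis) for each of the 32 genes (vertical axis), with its standard error, after IFN-γ (left), after IL-4 (middle) and without cytokine (right). Filled points have an edgeR adjusted p under 0.05: glycolysis points lie mostly left of 0 in all 3 panels, and the filled points right of 0 are G6pdx, Pgd and Taldo1 after IFN-γ and Taldo1 without cytokine.

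Of all genes, 8.01% were called lower in CKO after IFN-γ and 9.37% without cytokine. With all 12 libraries in the fit, the carriers were the only role in which every gene was called lower in CKO both after IFN-γ and without cytokine. This did not hold when the first untreated CKO library was left out, where Slc16a1 (−0.69) lost its call without cytokine. Slc2a1 encodes GLUT1, the glucose carrier of most cells. It had 77.3 and 79.9 CPM in CKO and 124 and 132 CPM in WT after IFN-γ, 47.7 and 56.6 CPM in CKO and 67.0 and 72.8 CPM in WT after IL-4, and 24.1 and 40.4 CPM in CKO and 57.4 and 64.8 CPM in WT without cytokine. The libraries did not overlap in any of the 3 conditions. The log2 fold change was −0.70 ± 0.19 (SE) after IFN-γ (edgeR adjusted p = 0.0232) and −0.92 ± 0.19 without cytokine (edgeR adjusted p = 0.00885; −0.59 and 0.021 without the first CKO library). Its call after IFN-γ was lost without any one of the 4 libraries compared (−0.74 to −0.65 over all fits), and that without cytokine was lost without the second WT library.

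Slc16a3 encodes MCT4, the carrier that exports lactate from glycolytic cells. Its level was 63.1 and 64.6 CPM in CKO and 118 and 129 CPM in WT after IFN-γ, 24.1 and 27.6 CPM in CKO and 30.0 and 37.4 CPM in WT after IL-4, and 31.8 and 35.6 CPM in CKO and 62.1 and 68.5 CPM in WT without cytokine. Libraries labelled CKO had about the same level after IFN-γ as WT libraries had without it. The log2 fold changes were −0.95 ± 0.12 after IFN-γ (edgeR adjusted p = 0.000315) and −0.95 ± 0.13 without cytokine (edgeR adjusted p = 0.000644; −0.86 without the first untreated CKO library), and both were called in all 12 left-out fits. Slc16a1 encodes MCT1, which carries lactate and pyruvate in either direction. It had 21.9 and 27.1 CPM in CKO and 35.4 and 47.0 CPM in WT after IFN-γ, 26.9 and 38.9 CPM in CKO and 36.8 and 35.4 CPM in WT after IL-4, and 13.5 and 17.4 CPM in CKO and 26.8 and 29.6 CPM in WT without cytokine. The labels overlapped after IL-4 only. Without cytokine the log2 fold change of −0.87 ± 0.20 (edgeR adjusted p = 0.0144) lost its call without either WT library or the first CKO library (−1.04 to −0.69 over all fits, −0.69 without that CKO library), and after IFN-γ −0.75 ± 0.20 (edgeR adjusted p = 0.0215) lost it without the second WT or the first CKO library (−0.93 to −0.53).

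IFN-γ raised all 3 carriers in CKO (2 without the first untreated library) and 2 of 3 in WT, and after IL-4 2 were higher and 1 lower in CKO (1 and 1 without that library) and 1 was lower in WT. IFN-γ raised Slc2a1 by 1.28 ± 0.19 in CKO and 1.07 ± 0.19 in WT (edgeR adjusted p = 0.000381 and 0.00135) and Slc16a3 by 0.92 ± 0.13 in CKO and 0.92 ± 0.12 in WT (edgeR adjusted p = 0.000165 and 0.000151), all on the log2 scale. In CKO the values were 0.94 for Slc2a1 and 0.82 for Slc16a3 without the first untreated library, both called. Slc16a3 was lower after IL-4 in WT (−0.95 ± 0.13, edgeR adjusted p = 0.000344). In CKO its change of −0.38 ± 0.13 (edgeR adjusted p = 0.0476) was lost in 9 of the 12 left-out fits, and was −0.47 with adjusted p = 0.0482 in edgeR without the first untreated CKO library. Slc16a1 was higher after IL-4 in CKO by 1.09 ± 0.20 (edgeR adjusted p = 0.0028; 0.92 without the first untreated CKO library), and its value in WT, 0.36 ± 0.20, was not past the test.

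The 10 genes of upper glycolysis run from hexokinase to triose phosphate isomerase. Of these, 5 were lower in CKO than in WT after IFN-γ (8.01% of all genes) and 4 without cytokine (9.37%), and none was higher. The 4 include Hk2 and Pfkl, whose values moved to −0.43 and −0.26 without the first CKO library. Pfkp, the platelet-type phosphofructokinase gene, showed the difference with the smallest adjusted p of the 32 genes after IFN-γ. It had 189 and 195 CPM in CKO and 392 and 414 CPM in WT after IFN-γ, 112 and 123 CPM in CKO and 138 and 151 CPM in WT after IL-4, and 62.5 and 74.8 CPM in CKO and 111 and 119 CPM in WT without cytokine. The libraries did not overlap in any condition. The log2 fold change was −1.07 ± 0.11 after IFN-γ (edgeR adjusted p = 4.9e-05) and −0.74 ± 0.11 without cytokine (edgeR adjusted p = 0.00116; −0.61 and 0.00705 without the first CKO library). IFN-γ raised Pfkp in both labels, by 1.48 ± 0.11 in CKO (1.34 without the first untreated CKO library) and 1.81 ± 0.11 in WT.

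The other phosphofructokinase genes responded less. Pfkl, the liver type, had 90.1 and 98.2 CPM in CKO and 152 and 151 CPM in WT after IFN-γ, 45.7 and 55.3 CPM in CKO and 61.1 and 63.7 CPM in WT after IL-4, and 70.1 and 76.5 CPM in CKO and 90.9 and 93.9 CPM in WT without cytokine. After IFN-γ it was lower in CKO (−0.69 ± 0.11, edgeR adjusted p = 0.000963), and its value without cytokine, −0.33 ± 0.11 (edgeR adjusted p = 0.0484), was called in 3 of the 12 left-out fits only and was −0.26 without the first CKO library. Pfkm, the muscle type, had 13.5 and 11.6 CPM in CKO and 20.7 and 20.2 CPM in WT after IFN-γ, 11.6 and 11.3 CPM in CKO and 11.8 and 12.9 CPM in WT after IL-4, and 14.2 and 14.5 CPM in CKO and 15.1 and 14.6 CPM in WT without cytokine. After IFN-γ it was lower in CKO (−0.71 ± 0.11, edgeR adjusted p = 0.00136), and the values for IFN-γ over untreated had opposite signs in the 2 labels: −0.19 ± 0.11 in CKO, not past the test, and 0.46 ± 0.11 in WT (edgeR adjusted p = 0.0102). The interaction was −0.65 ± 0.16 with an edgeR adjusted p of 0.0583, 0.0359 in DESeq2 and 0.037 with the library number as a block. The value in CKO was −0.23 and the interaction −0.70 (edgeR adjusted p = 0.0681) without the first untreated CKO library.

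Hexokinases phosphorylate glucose on entry. Hk3, the form found in myeloid cells, was the most abundant of the 3 and rose most after IFN-γ, with 1821 and 1835 CPM in CKO and 2249 and 2022 CPM in WT, against 562 and 519 CPM in CKO and 646 and 655 CPM in WT after IL-4 and 491 and 554 CPM in CKO and 632 and 596 CPM in WT without cytokine. The log2 fold change of IFN-γ over untreated was 1.81 ± 0.10 in CKO (edgeR adjusted p = 9.34e-08), with an interaction of 0.01 ± 0.14 (edgeR adjusted p = 0.995), and without the first untreated CKO library it was 1.70 in CKO and the interaction −0.10. Between CKO and WT, Hk3 was not called in any condition (−0.27 to −0.22, and −0.14 without cytokine when the first CKO library is left out). Hk1 had 231 and 238 CPM in CKO and 232 and 238 CPM in WT after IFN-γ, 94.2 and 99.2 CPM in CKO and 107 and 118 CPM in WT after IL-4, and 78.0 and 110 CPM in CKO and 117 and 120 CPM in WT without cytokine. Its levels after IFN-γ overlapped between the labels, with a log2 fold change of −0.01 ± 0.13 and a rise over untreated of 1.31 ± 0.14 in CKO (1.07 without the first untreated library) and 0.99 ± 0.14 in WT. Hk2 had 156 and 144 CPM in CKO and 175 and 184 CPM in WT after IFN-γ, 92.8 and 93.2 CPM in CKO and 125 and 122 CPM in WT after IL-4, and 59.9 and 72.8 CPM in CKO and 90.2 and 108 CPM in WT without cytokine. It was lower in CKO without cytokine (−0.58 ± 0.12, edgeR adjusted p = 0.00691), a call lost without the first CKO library (−0.43) or the second WT library, and IFN-γ raised it in both labels (1.18 ± 0.12 in CKO, 1.03 without the first untreated CKO library, and 0.86 ± 0.11 in WT).

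Aldolase and triose phosphate isomerase genes differed from each other. Aldoc, the brain-type aldolase gene, was the only gene of upper glycolysis that both cytokines lowered: it had 25.0 and 28.3 CPM in CKO and 26.8 and 25.0 CPM in WT after IFN-γ, 19.3 and 16.8 CPM in CKO and 23.3 and 21.2 CPM in WT after IL-4, and 49.2 and 46.1 CPM in CKO and 48.0 and 48.3 CPM in WT without cytokine. The log2 fold change over untreated was −0.84 ± 0.11 in CKO and −0.89 ± 0.11 in WT for IFN-γ, and −1.40 ± 0.11 in CKO and −1.11 ± 0.11 in WT for IL-4 (edgeR adjusted p = 0.000156, 9.49e-05, 6.97e-06 and 5.1e-05). In CKO they were −0.81 for IFN-γ and −1.36 for IL-4 without the first untreated library. Between CKO and WT, Aldoc stayed within −0.30 to 0.04 and was not called. Aldoa, the main aldolase gene, was called in neither the genotype comparisons nor the comparisons of a cytokine with untreated. Tpi1, the triose phosphate isomerase gene, had 348 and 379 CPM in CKO and 598 and 614 CPM in WT after IFN-γ, 212 and 264 CPM in CKO and 296 and 296 CPM in WT after IL-4, and 223 and 250 CPM in CKO and 381 and 375 CPM in WT without cytokine. It was lower in CKO after IFN-γ (−0.74 ± 0.11) and without cytokine (−0.68 ± 0.11, edgeR adjusted p = 0.000856 and 0.0025), and both calls held in all 12 left-out fits (−0.59 without cytokine without the first untreated CKO library). Gpi1, the glucose phosphate isomerase gene, was lower after IFN-γ (−0.45 ± 0.14, edgeR adjusted p = 0.0488), in 4 of those 12 fits only.

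**Figure D3:**
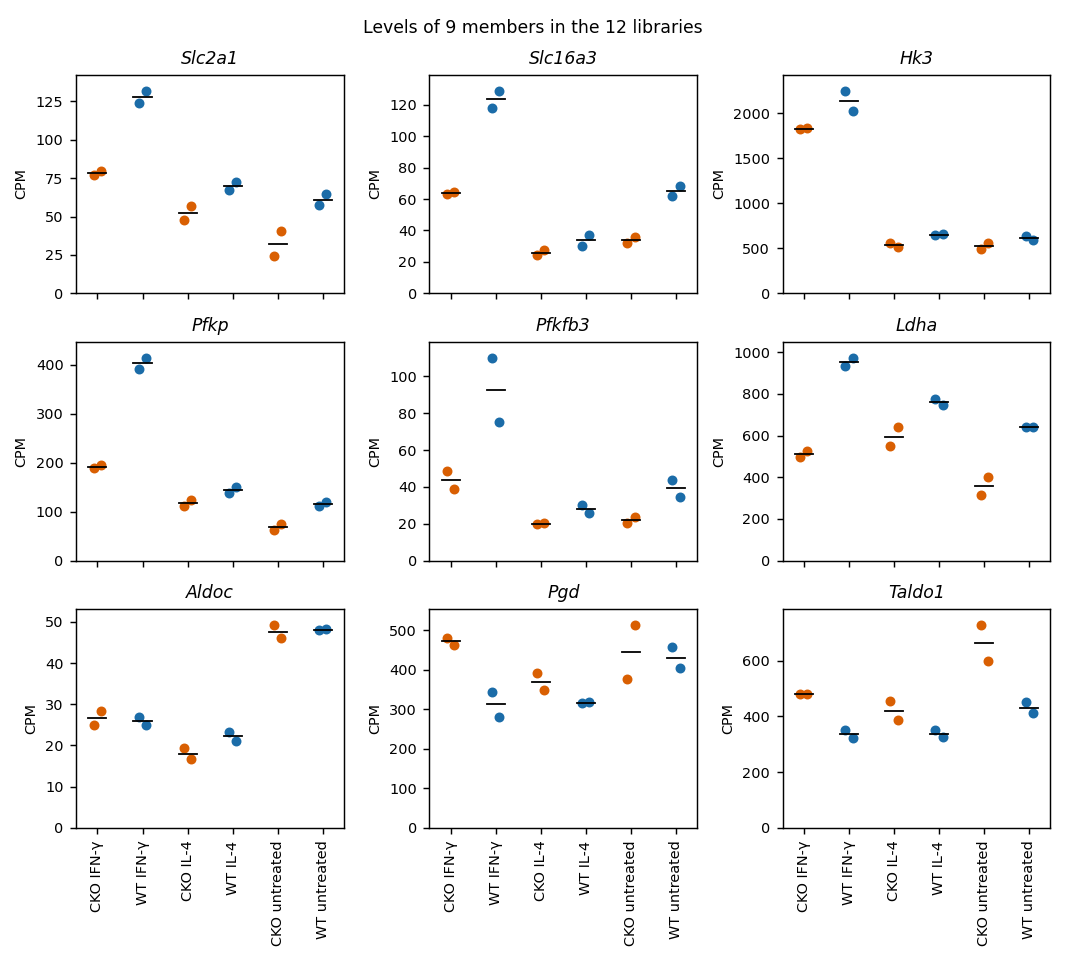
CPM (vertical axes, from 0) of 9 genes in each of the 12 libraries, orange for those labelled CKO and blue for WT, with the mean of the 2 libraries as a bar. Pfkp after IFN-γ lies at 189 and 195 CPM in CKO and at 392 and 414 CPM in WT, Aldoc is lower after either cytokine in both labels, and Taldo1 is higher in CKO than in WT in each condition.

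Of the 3 kinases that control glycolysis, Pfkfb3 and Pdk1 were lower in CKO after IFN-γ and without cytokine, and Pfkfb4 was not called. Of all genes, 8.01% were called lower after IFN-γ and 9.37% without cytokine. Pfkfb3 makes the sugar phosphate that activates phosphofructokinase. It had 48.9 and 39.1 CPM in CKO and 110 and 75.5 CPM in WT after IFN-γ, 19.8 and 20.2 CPM in CKO and 30.0 and 26.0 CPM in WT after IL-4, and 20.5 and 23.8 CPM in CKO and 43.9 and 34.4 CPM in WT without cytokine. The CKO libraries lay below the WT libraries in each condition, with log2 fold changes of −1.08 ± 0.19 after IFN-γ (edgeR adjusted p = 0.00212) and −0.82 ± 0.19 without cytokine (edgeR adjusted p = 0.0141). The call without cytokine was lost without the first CKO library or the first WT library (−0.99 to −0.64 over all fits, −0.71 without that CKO library). Its relative Pfkfb4, a bifunctional kinase and phosphatase, had positive values in CKO over WT that were not past the test (0.44 ± 0.16 after IFN-γ, 0.21 ± 0.15 after IL-4 and 0.43 ± 0.15 without cytokine, the last 0.19 without the first CKO library). Pdk1 inhibits pyruvate dehydrogenase and so keeps pyruvate from the mitochondria. It had 86.9 and 94.1 CPM in CKO and 132 and 144 CPM in WT after IFN-γ, 41.7 and 56.4 CPM in CKO and 61.2 and 61.5 CPM in WT after IL-4, and 63.3 and 65.4 CPM in CKO and 96.2 and 89.6 CPM in WT without cytokine. After IFN-γ it was lower in CKO (−0.61 ± 0.13, edgeR adjusted p = 0.00665), a call lost without the first CKO library (−0.66 to −0.54 over all fits). Without cytokine it was also lower in CKO (−0.53 ± 0.13, edgeR adjusted p = 0.0168), and the value was −0.495 without the first CKO library. That call was lost without either WT library or the first CKO library (−0.59 to −0.48 over all fits).

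In lower glycolysis, from Gapdh to lactate dehydrogenase, 3 of 8 genes were lower in CKO than in WT after IFN-γ (8.01% of all genes). Without cytokine 5 were (9.37%), and all 8 values were negative in both. The 5 include Gapdh and Pkm, whose values moved to −0.39 and −0.25 without the first CKO library. Ldha, whose enzyme makes lactate, had 499 and 528 CPM in CKO and 936 and 972 CPM in WT after IFN-γ, 550 and 639 CPM in CKO and 777 and 746 CPM in WT after IL-4, and 314 and 401 CPM in CKO and 640 and 639 CPM in WT without cytokine. The labels did not overlap in any condition. Its log2 fold change was −0.89 ± 0.12 after IFN-γ and −0.84 ± 0.12 without cytokine (edgeR adjusted p = 0.000427 and 0.00119), and without the first untreated CKO library −0.66 (edgeR adjusted p = 0.00544). Pgk1 and Pgam1, the genes of phosphoglycerate kinase and mutase, were lower in both conditions as well: Pgk1 at −0.50 ± 0.12 and Pgam1 at −0.39 ± 0.09 after IFN-γ, and Pgk1 at −0.65 ± 0.12 and Pgam1 at −0.48 ± 0.09 without cytokine (−0.53 and −0.36 without the first CKO library). After IFN-γ the calls of both were lost without either CKO library or the second WT library, and without cytokine that of Pgam1 was lost without the first WT library.

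Pkm, the pyruvate kinase gene, had 3002 and 3286 CPM in CKO and 3187 and 3191 CPM in WT after IFN-γ, 1319 and 1580 CPM in CKO and 1840 and 1837 CPM in WT after IL-4, and 1403 and 1827 CPM in CKO and 2234 and 2154 CPM in WT without cytokine. After IFN-γ the labels overlapped (−0.02 ± 0.13), and without cytokine the difference of −0.44 ± 0.13 (edgeR adjusted p = 0.0401) was called in 5 of 12 left-out fits and was −0.25 without the first CKO library. IFN-γ raised Pkm by 0.96 ± 0.13 in CKO (0.76 without the first untreated library) and 0.54 ± 0.13 in WT. Gapdh, which is often used to scale other genes, had 323 CPM in the first untreated CKO library and 559 CPM in the second, against 705 and 768 CPM in untreated WT. Its log2 fold change of −0.74 ± 0.19 (edgeR adjusted p = 0.0248) was lost without that first CKO library (−0.39) and without either WT library. With the counts of its copies added, Gapdh was at 859 and 1420 CPM in CKO and 1830 and 1930 CPM in WT without cytokine. Eno1, Bpgm and Ldhb were called in no comparison.

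Of the 8 pentose phosphate genes, 3 were higher in CKO than in WT after IFN-γ, where 10.4% of all genes were called higher, and 1 was higher without cytokine, where 8.6% were. None was called after IL-4, and none was called lower in any condition. The 3 after IFN-γ became 0 without either CKO library, and 1 without the second WT library. Their values had both signs: 5 positive and 3 negative after IFN-γ (median 0.21), 6 and 2 after IL-4 (0.09), and 5 and 3 without cytokine (0.03). Taldo1, whose enzyme links the non-oxidative arm to glycolysis, had 482 and 481 CPM in CKO and 350 and 321 CPM in WT after IFN-γ, 454 and 388 CPM in CKO and 350 and 327 CPM in WT after IL-4, and 727 and 599 CPM in CKO and 451 and 411 CPM in WT without cytokine. The labels did not overlap in any condition. Its log2 fold change was 0.52 ± 0.12 after IFN-γ (edgeR adjusted p = 0.0102), 0.32 ± 0.12 after IL-4 (not called) and 0.62 ± 0.12 without cytokine (edgeR adjusted p = 0.00557; 0.49 and 0.0408 without the first CKO library). After IFN-γ its call was lost without either CKO library or the second WT library (0.46 to 0.60).

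In the oxidative arm the difference was called after IFN-γ. Pgd, the phosphogluconate dehydrogenase gene, had 480 and 464 CPM in CKO and 345 and 280 CPM in WT after IFN-γ, 391 and 348 CPM in CKO and 315 and 318 CPM in WT after IL-4, and 376 and 513 CPM in CKO and 457 and 405 CPM in WT without cytokine. The labels overlapped without cytokine only. Its log2 fold change after IFN-γ was 0.60 ± 0.15 (edgeR adjusted p = 0.0157), lost without either CKO library or the second WT library (0.46 to 0.77). G6pdx, whose enzyme makes the first NADPH of the pathway, had 327 and 330 CPM in CKO and 254 and 255 CPM in WT after IFN-γ, 237 and 226 CPM in CKO and 211 and 210 CPM in WT after IL-4, and 304 and 328 CPM in CKO and 297 and 288 CPM in WT without cytokine. After IFN-γ it was higher by 0.37 ± 0.08 (edgeR adjusted p = 0.0103), lost without either CKO library, which then leaves 1 in the group. H6pd, the form of the endoplasmic reticulum, Pgls, Rpia, Rpe and Tkt were not called between CKO and WT in any condition (−0.26 to 0.23, a range that also held all 5 values without the first untreated CKO library).

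With all 12 libraries in the fit, IFN-γ raised 15 of the 24 genes of glycolysis, its carriers and control kinases in CKO and 14 in WT. Of the 8 pentose phosphate genes it raised 1 in CKO, H6pd, and 0 in WT, and lowered 1 in CKO and 2 in WT. The H6pd value was 0.39 in CKO, called in 7 of the 12 left-out fits, and 0.40 without the first untreated CKO library. In CKO 16 of the 32 were higher and 2 lower than without cytokine, where 14.7% and 11.9% of all genes were called (26.6% in either direction, 31.9% at 10 CPM or more). In WT 14 were higher and 3 lower, where 12.4% and 11.8% of all genes were called (24.2% in either direction, 29.4% at 10 CPM or more). Libraries did not overlap for 30 genes in CKO (61.8% of all genes) and 29 in WT (59.9%). The medians were 0.40 in CKO and 0.41 in WT on the log2 scale. The 12 genes called higher in both were Slc2a1, Slc16a3, Hk1, Hk2, Hk3, Pfkl, Pfkp, Tpi1, Pfkfb3, Pdk1, Pkm and Ldha, and Aldoc and Taldo1 were called lower in both. Taldo1 fell by 0.46 in CKO and by 0.36 in WT, and Pgd fell by 0.46 in WT (edgeR adjusted p = 0.0119, 0.0437 and 0.0379). Over the left-out fits these were called in 9, 4 and 5 of 12, with values of −0.60 to −0.34, −0.43 to −0.29 and −0.63 to −0.32. Without the first untreated CKO library Taldo1 was at −0.34 in CKO and not called (edgeR adjusted p = 0.0754). The genes with the smallest adjusted p were Hk3, Pfkp and Hk2 in CKO and Hk3, Pfkp and Aldoc in WT. Without the first untreated CKO library 11 were higher and 1 was lower in CKO (median 0.24), and without the second IFN-γ CKO library 9 were higher. The 3 lower genes in WT became 1 in 7 of the 12 left-out fits, namely without any one of the 4 untreated or IL-4 WT libraries, the second IFN-γ WT library or either IFN-γ CKO library. The 2 lower genes in CKO became 1 without the first untreated or either IFN-γ library.

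**Figure D4:**
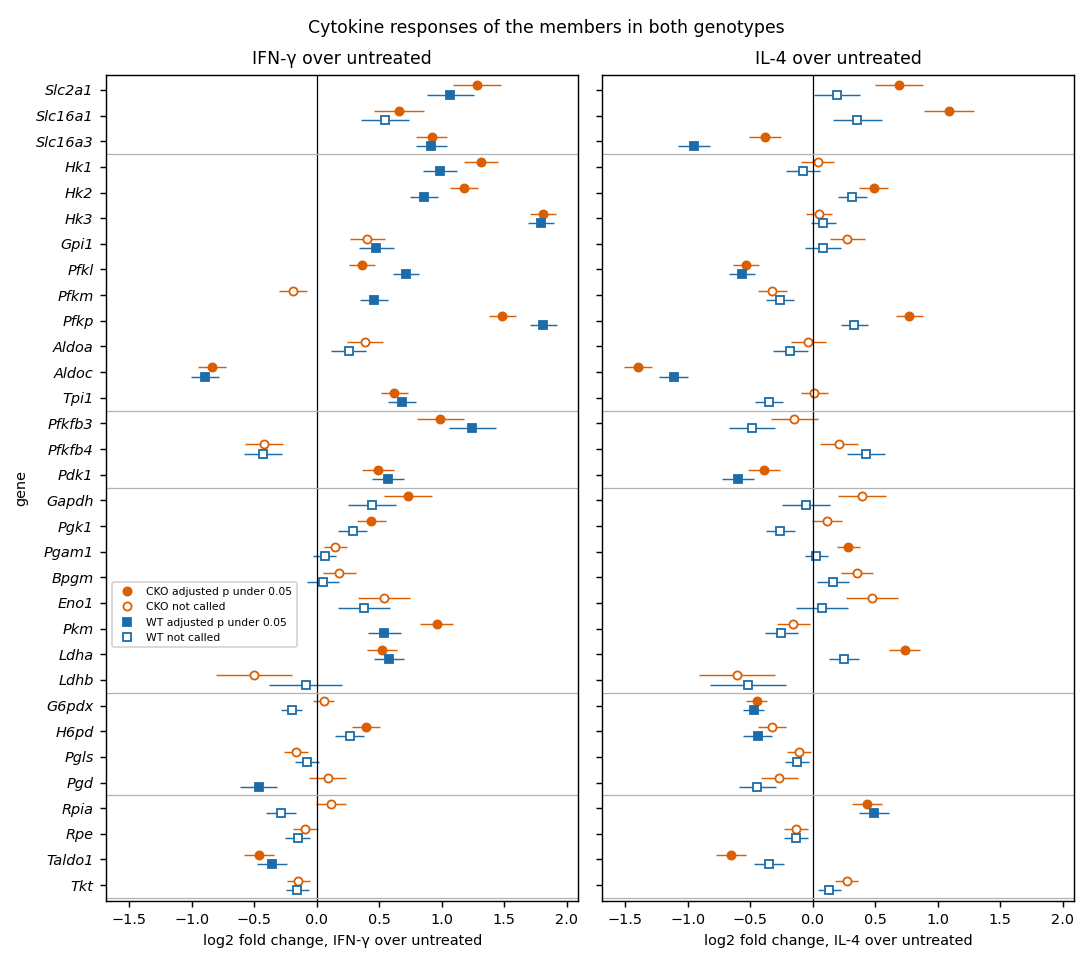
Log2 fold change over untreated (horizontal axis) of each of the 32 genes (vertical axis), with its standard error, for IFN-γ (left) and IL-4 (right), orange circles for libraries labelled CKO and blue squares for WT. Filled symbols have an edgeR adjusted p under 0.05: after IFN-γ Hk3 and Pfkp lie furthest right in both labels, and after IL-4 Aldoc lies furthest left.

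IL-4 moved fewer of these genes. In CKO 7 were higher and 6 lower than without cytokine, where 11.2% and 11.3% of all genes were called (22.5% in either direction, 27.6% at 10 CPM or more). In WT 1 was higher and 6 were lower, where 6.64% and 5.59% of all genes were called (12.2% in either direction, 14.6% at 10 CPM or more). Libraries did not overlap for 21 genes in CKO (56.8% of all genes) and 29 in WT (61.8%). Slc16a3, Pfkl, Aldoc, Pdk1 and G6pdx were called lower in both labels and Rpia, the ribose phosphate isomerase gene, higher in both (0.43 ± 0.12 in CKO and 0.49 ± 0.12 in WT, edgeR adjusted p = 0.0242 and 0.0208, called in 8 and 9 of 12 left-out fits, and 0.46 in CKO with edgeR adjusted p = 0.0541 without the first untreated CKO library). For G6pdx the values were −0.45 ± 0.08 in CKO and −0.47 ± 0.08 in WT (edgeR adjusted p = 0.00285 and 0.00286), and −0.51 in CKO without the first untreated CKO library. The 6 genes called higher in CKO only were Slc2a1, Slc16a1, Hk2, Pfkp, Pgam1 and Ldha, and none of the 6 was past the test in the interaction (edgeR adjusted p = 0.773 to 0.827). They are also genes for which the first untreated CKO library was low: without it Slc16a1, Pfkp and Ldha were still called, Slc2a1, Hk2 and Pgam1 were not, and the counts in CKO were 3 higher and 6 lower (median −0.08, against 0.03 with it). Without the second untreated CKO library 11 were higher, and without the second IL-4 CKO library 3. In WT the 1 higher gene became 0 without the first untreated or either IL-4 library and 4 without either untreated CKO library, and the 6 lower became 3 without the first IL-4 library.

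Set against IL-4, IFN-γ gave higher levels of 15 genes and lower levels of 2 in CKO, where 16.3% and 13.7% of all genes were called (29.9% in either direction, 35.4% at 10 CPM or more), and higher levels of 16 and lower levels of 3 in WT, where 14.2% and 13.8% were called (28% in either direction, 33.8% at 10 CPM or more). Libraries did not overlap for 28 genes in CKO (67.4% of all genes) and 24 in WT (65.5%). Slc16a3 had log2 fold changes of 1.30 ± 0.13 in CKO and 1.87 ± 0.13 in WT (edgeR adjusted p = 7.22e-06 and 3.95e-07), and Hk3 of 1.76 ± 0.10 in CKO and 1.72 ± 0.10 in WT. Pfkfb3 was higher by 1.14 ± 0.19 in CKO and 1.73 ± 0.19 in WT, while Pfkfb4 was lower (−0.63 ± 0.15 in CKO and −0.86 ± 0.16 in WT, edgeR adjusted p = 0.00783 and 0.00116). Tkt, the transketolase gene, was lower after IFN-γ in both labels (−0.42 ± 0.09 in CKO and −0.29 ± 0.09 in WT) and Rpia in WT (−0.77 ± 0.12), whereas G6pdx and H6pd of the oxidative arm were higher in both. The WT call of Tkt held in 4 of the 12 left-out fits (−0.31 to −0.25), that of G6pdx was lost without any one of the 4 libraries compared (0.28 to 0.29), and the CKO call of Pfkfb4 was lost without either IFN-γ library or the first IL-4 library (−0.79 to −0.45). The 2 lower genes in CKO became 1 without either IFN-γ CKO library.

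Within families of enzymes for the same step, the shares of the forms moved. Shares were computed from CPM per kb of exon. The length is that of all annotated exons of a gene, 13401 bases for Pfkp, 6675 for Pfkl and 3340 for Pfkm. Each share depends on these lengths. Of the phosphofructokinase signal, Pfkp made up 44.5% ± 0.164 in CKO and 51.1% ± 1.11 in WT after IFN-γ, 44.3% ± 0.561 in CKO and 45.2% ± 0.703 in WT after IL-4, and 25.1% ± 1.46 in CKO (26.1% in the second library alone) and 31.9% ± 0.894 in WT without cytokine (SD, n = 2 libraries). Pfkfb3 made up 43.4% ± 3.55 of the Pfkfb3 and Pfkfb4 signal in CKO and 68.4% ± 4.73 in WT after IFN-γ, 18.7% ± 2.69 in CKO and 26.9% ± 2.45 in WT after IL-4, and 22.9% ± 5.89 in CKO (27.1% in the second library alone) and 40.8% ± 2.33 in WT without cytokine. In each condition both CKO libraries had a lower Pfkfb3 share than both WT libraries. Hk3 held 83.9% to 90.9% of the hexokinase signal in the group means. The monocarboxylate carriers changed with IL-4: Slc16a1 made up 60.1% ± 3.94 in CKO and 56.4% ± 4.48 in WT after IL-4, against 28.5% to 35.4% in the means of the other 4 groups. These shares are descriptions and were not tested.

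**Figure D5:**
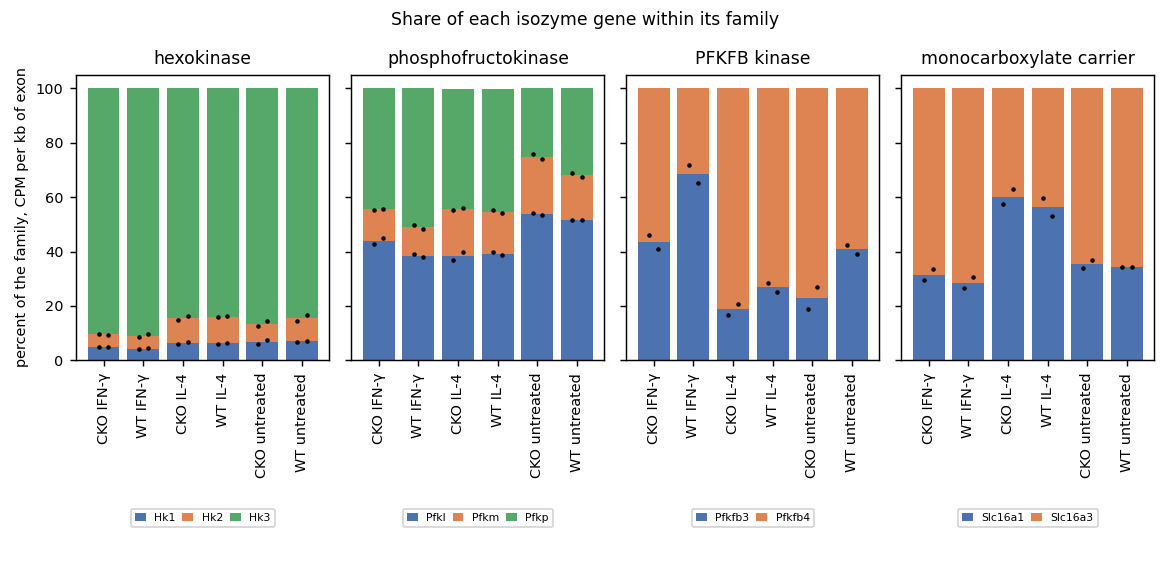
Share of each gene in its family (percent of the summed CPM per kb of exon, vertical axis from 0) in the 6 groups, as stacked bars of the mean of 2 libraries, with dots at the boundary in each library. The Pfkfb3 share is smaller in libraries labelled CKO than in WT in each condition, and the Slc16a1 share is above 50% after IL-4 alone.

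Other measures moved with the labels. The 12 neutrophil and precursor markers summed to 409 to 411 CPM in CKO and 58.3 to 72.2 CPM in WT after IFN-γ, 175 to 194 CPM in CKO and 35.1 to 44.6 CPM in WT after IL-4, and 180 to 315 CPM in CKO and 44.0 to 51.9 CPM in WT without cytokine, with none of the 12 at 0 in any group. Of the 12, 11 were called higher in CKO after IFN-γ, 9 after IL-4 and 11 without cytokine (9 without the first untreated CKO library, which had the sum of 315 CPM). The 6 markers of cycling cells summed to 973 to 1107 CPM in CKO and 1753 to 1795 CPM in WT after IFN-γ, 1549 to 2089 CPM in CKO and 1746 to 1785 CPM in WT after IL-4, and 1155 to 1929 CPM in CKO and 2198 to 2315 CPM in WT without cytokine, where the first CKO library had the 1155. In edgeR 4 of the 6 were called lower in CKO after IFN-γ and none in the other 2 conditions. The shares of all genes called higher in CKO were 10.4% after IFN-γ, 1.41% after IL-4 and 8.6% without cytokine, and 8.01% were called lower after IFN-γ. In bulk RNA, fewer cells of a type and less RNA per cell cannot be told apart. The part of these markers in the differences of the 32 genes was not tested. Fibroblast, erythroid and lymphocyte markers summed to at most 0.417 CPM in any library. The 6 dendritic cell markers summed to at most 9.14 CPM in CKO and 55.2 CPM in WT, both after IFN-γ. Most of that WT sum was Clec9a, at 52.7 CPM, a gene that IFN-γ raised in WT (log2 fold change 9.05). Of 4 dendritic cell markers tested, 2 were called lower and 0 higher in CKO after IFN-γ, and none in the other 2 conditions. After IFN-γ Clec9a was lower in CKO (−3.01 ± 0.21, edgeR adjusted p = 3.63e-06). Zbtb46, not called, had 0.79 and 0.892 CPM in CKO and 0.455 and 0.0719 CPM in WT after IFN-γ.

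Other genes of glucose metabolism, outside the 32, showed no common direction between the labels. Of 49 listed, 37 were tested. After IFN-γ 6 were higher and 7 lower in CKO than in WT (median −0.07), after IL-4 1 and 0 (median −0.06), and without cytokine 4 and 7 (median −0.14), which became 1 and 1 (median −0.11) without the first untreated CKO library. The shares of all genes called higher and lower were 10.4% and 8.01% after IFN-γ, 1.41% and 1.55% after IL-4, and 8.6% and 9.37% without cytokine. Slc2a6, another hexose carrier gene, had 57.2 and 56.3 CPM in CKO and 24.1 and 24.4 CPM in WT after IFN-γ, and 14.3 and 13.7 CPM in CKO and 24.8 and 23.7 CPM in WT without cytokine. IFN-γ raised it in CKO by 2.02 ± 0.11 (edgeR adjusted p = 6.41e-08), and the interaction of 2.02 ± 0.15 was past the test (edgeR adjusted p = 0.000134). The rise was 2.03 and the interaction 2.02 (edgeR adjusted p = 0.000542) without the first untreated CKO library. Slc2a1, the carrier among the 32, was lower in CKO in the same libraries. Pygl, the glycogen phosphorylase gene, was higher in CKO after IFN-γ (1.28 ± 0.21, edgeR adjusted p = 0.00182) and without cytokine, with 238 and 150 CPM in CKO and 104 and 91.1 CPM in WT (edgeR adjusted p = 0.00966), and Tigar, whose product opposes phosphofructokinase, was lower without cytokine (−0.73 ± 0.16). Without the first untreated CKO library neither was called in that condition (Pygl 0.63, edgeR adjusted p = 0.0637, and Tigar −0.52, edgeR adjusted p = 0.0738).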

How the data were processed

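The table deposited by the authors holds raw counts per gene for 12 libraries, 2 in each of 6 groups, with no normalization. Per the labels' protocols, libraries were made with an Illumina RNA exome kit. The submitters' processing notes list HTSeq 0.6.1, Picard 1.97, TopHat2 2.0.13 and CASAVA 1.8.2, with no role or order. The annotation release is not given in the sources used here, nor is the strand setting. The depth was 21287725 to 32717379 counts, and each of the 32 genes had at least 85 counts in every library.

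The counts were tested here with edgeR 4.0.16 in R 4.3.3 (TMM scaling, filterByExpr, robust quasi-likelihood, 1 fit of 6 group means, 6 residual degrees of freedom). The 11 comparisons were each adjusted by Benjamini-Hochberg over 16292 genes at 0.05. Standard errors are the log2 fold change over the root of F, an approximation. The procedure was also run on simulated counts with the spread estimated here and no library that stood apart. That run does not test how such a library moves the calls. Copies were found with BLAST 2.17.0 (identity of at least 95% over at least 300 bases), and exon lengths come from a GRCm38 annotation.

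Groups followed the labels. Alternatives were DESeq2 1.42.0, its size factors, no filter, only the compared groups, a replicate block (also within genotype), a fold threshold and each library left out. Adding the counts of copies was chosen after seeing the data. Genes given in every library were those past the threshold with a log2 fold change of at least 1, those called in an interaction and the 3 with the smallest adjusted p per comparison. Taldo1 was added after its values were seen. The 32 genes and all lists were chosen with earlier results of these data known.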

Additional observations from a re-analysis of the deposited data

How the results depend on the processing

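Counts below are of the 32 genes, higher and lower in the first-named group. Requiring a log2 fold change of at least 1 beside the adjusted p left 0 higher and 2 lower in CKO against WT after IFN-γ and 0 and 0 without cytokine, 5 and 0 for IFN-γ over untreated in CKO and 4 and 0 in WT, 1 and 1 for IL-4 over untreated in CKO and 0 and 1 in WT, and 5 and 0 for IFN-γ over IL-4 in CKO and 8 and 0 in WT. With only the compared groups in the fit, CKO against WT without cytokine had 0 higher and 7 lower, IFN-γ over untreated in CKO had 1 lower, and IL-4 over untreated had 3 higher and 1 lower in CKO and 6 higher and 12 lower in WT. With no filter on low counts there were 2 higher in CKO against WT without cytokine, 1 lower after IL-4, 2 higher and 10 lower for IL-4 over untreated in WT, and 1 higher in each interaction. DESeq2 called 1 lower in CKO against WT after IL-4 and 1 lower in the IFN-γ interaction. The cause of these shifts was not tested. No called value changed sign. Of 122 called gene values, 122 kept direction and call in DESeq2, 120 with DESeq2 size factors, 118 with no filter, 98 with only the compared groups and 120 with copies added.

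With each library left out in turn, higher and lower counts ran from 0 to 4 and 7 to 16 for CKO against WT after IFN-γ, 0 and 0 to 2 after IL-4, and 0 to 2 and 7 to 18 without cytokine. For IFN-γ over untreated they ran from 9 to 18 and 1 to 3 in CKO and 10 to 18 and 1 to 4 in WT, for IL-4 over untreated 3 to 11 and 4 to 6 in CKO and 0 to 4 and 3 to 9 in WT, and for IFN-γ over IL-4 13 to 18 and 1 to 3 in CKO and 14 to 20 and 2 to 3 in WT. The interactions had 0 to 4 higher and 0 lower. Of 1464 values, 1281 kept their call. A group left with 1 library was assumed to vary like the others.

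The library numbers are shared by the groups, but nothing in the labels ties them to an animal or day, and with 2 per group the pairing cannot be established from these data. Deviations of same-numbered libraries correlated over genes at 0.1 to 0.431 within a genotype and, between genotypes, at 0.051 to 0.256 under the same treatment and −0.005 to 0.217 under different treatments. With the replicate number as a block, CKO against WT had 2 higher without cytokine and 2 lower after IL-4 (Hk2 and Slc16a3), IL-4 over untreated in WT had 3 higher, IFN-γ over IL-4 in CKO had 4 lower, and the IFN-γ interaction had 1 lower (Pfkm). With the block within genotype, IL-4 over untreated had 12 higher in CKO and 5 higher and 10 lower in WT, IFN-γ over IL-4 in CKO had 4 lower and the IFN-γ interaction 1 lower. All 122 called values kept their call under the block, and 91 of 91 that could be fitted under the block within genotype.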

Other observations

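Genes known to respond to hypoxia-inducible factors, outside the 32, showed a lower median in libraries labelled CKO. Of 19 tested, 2 were higher and 6 lower in CKO than in WT after IFN-γ (median log2 fold change −0.35), 0 and 0 after IL-4 (−0.27), and 1 and 9 without cytokine (−0.41), or 0 and 3 without the first untreated CKO library (−0.36). Of all genes tested, 10.4% were called higher and 8.01% lower in CKO after IFN-γ, 1.41% and 1.55% after IL-4, and 8.6% and 9.37% without cytokine. Set against untreated, IFN-γ raised 5 and lowered 2 of the 19 in CKO (median 0.03, and −0.004 without the first untreated library). In WT it raised 6 and lowered 4 (median −0.22). Of all genes tested, IFN-γ raised 14.7% and lowered 11.9% in CKO, and raised 12.4% and lowered 11.8% in WT. Bnip3, a mitophagy receptor gene, had 27.0 and 28.4 CPM in CKO and 46.9 and 52.3 CPM in WT after IFN-γ, and 34.4 and 25.1 CPM in CKO and 29.8 and 26.6 CPM in WT without cytokine. Its interaction was past the test (−0.92 ± 0.20, edgeR adjusted p = 0.0378), but not without the first untreated CKO library (−0.70, edgeR adjusted p = 0.0617). Ndrg1 went the other way, with 57.4 and 60.4 CPM in CKO and 36.6 and 32.3 CPM in WT after IFN-γ. Hif1a itself had 203 and 204 CPM in CKO and 261 and 332 CPM in WT after IFN-γ, a log2 fold change of −0.55 ± 0.11 (edgeR adjusted p = 0.00581), against 143 and 131 CPM in CKO and 145 and 152 CPM in WT without cytokine. IFN-γ raised Hif1a in both labels (edgeR adjusted p = 0.0025 in CKO and 3.56e-05 in WT). It lowered Epas1, another listed regulator (log2 fold change −1.63 in CKO, −1.64 without the first untreated library, and −2.535 in WT). Of 15 listed regulators of glucose metabolism, 14 were tested. Between CKO and WT, 2 were higher and 1 lower after IFN-γ (median 0.01), and 0 and 0 after IL-4 (−0.002). Without cytokine 0 were higher and 3 lower (0.04, and 0.05 without the first CKO library).

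Genes of the NRF2 antioxidant response, some of which supply or use NADPH, fell after IFN-γ: 7 of 12 in CKO (median −0.53; 9 without the first untreated library, median −0.59) and 12 of 12 in WT (−1.10). After IFN-γ 4 of the 12 were higher in CKO than in WT and none was lower (median 0.33), after IL-4 1 was higher and 1 lower (0.09), and without cytokine 1 was higher and 4 were lower (−0.13), or 3 and 1 without the first untreated CKO library (−0.04). Of all genes tested, IFN-γ lowered 11.9% in CKO and 11.8% in WT. Between CKO and WT, 10.4% of all genes were called higher and 8.01% lower after IFN-γ, 1.41% and 1.55% after IL-4, and 8.6% and 9.37% without cytokine. Hmox1, the heme oxygenase gene, was among the NRF2 genes lower in CKO without cytokine (−1.40 ± 0.26, edgeR adjusted p = 0.00629, and −0.99 without the first untreated CKO library). Gclm, a glutathione synthesis gene, had 278 and 287 CPM in CKO and 137 and 127 CPM in WT after IFN-γ, and 462 and 439 CPM in CKO and 318 and 296 CPM in WT without cytokine (interaction 0.54 ± 0.13, edgeR adjusted p = 0.0478, and 0.0691 without that library). Prps1, which turns ribose phosphate towards nucleotides, had 73.2 and 62.1 CPM in CKO and 29.8 and 30.6 CPM in WT after IL-4, and 7.59 and 10.6 CPM in CKO and 14.4 and 14.5 CPM in WT without cytokine (interaction 1.83 ± 0.23, edgeR adjusted p = 0.0183; 1.62 and 0.0325 without that library).

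Several limits apply to all values. Groups hold 2 libraries, and RNA levels are not enzyme activity or flux. Irf8, which the series title names, had higher counts in libraries labelled CKO, and a count over the whole gene does not check the loss of single exons. Markers of neutrophils and precursors moved with the labels, as did those of cycling cells after IFN-γ.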
